A study of Mus musculus with 20 samples.

Results

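The 39 Hox genes of the mouse and the CTCF peaks over their 4 clusters were examined in embryonic stem cells with and without thymine DNA glycosylase. The genes were taken as every symbol of Hox followed by a, b, c or d and a number with no suffix, 39 of the 46939 genes of the expression table, silent ones included. The peaks were those inside each cluster or within 50 kb of it, which merged into 41 regions of 54729 in all. The cells were mESCs of strain background 129, either WT or TDG KO, and both genotypes were grown with LIF and serum on mitotically arrested mouse embryonic fibroblasts that were then depleted by replating. RNA-seq covered 2 libraries of each genotype and CTCF chromatin immunoprecipitation 2 libraries of each genotype. The KO and its wild-type control were received as a pair of lines, so a difference between genotypes is also a difference between these lines. Whether replicates came from separate cultures is not in the labels, so the spread behind each p-value may be technical.

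Hox genes encode homeodomain transcription factors that set position along the body axis. They lie in 4 clusters in which the order of the genes follows the order in which they are used, from the anterior to the posterior end. In embryonic stem cells the clusters are held nearly silent by Polycomb complexes, and CTCF, a zinc finger protein that anchors chromatin loops, binds between the genes and marks borders of active and silent domains when the genes are switched on. TDG removes 5-formylcytosine and 5-carboxylcytosine, which are among the oxidised forms of methylated cytosine. The title of the series asks how 5-carboxylcytosine bears on CTCF binding at weak sequences.

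A CTCF region overlapped the RefSeq promoter window (250 bases before to 50 after a start) of 2 Hox genes, Hoxa5 and Hoxd10, and of the antisense transcript Hoxd3os1. These stretches are shown because a CTCF peak met a promoter window there. The peak at Hoxd10 was also the only region of the 4 windows found in each TDG KO list and missing from each WT list. Only 22 of the 39 Hox genes had a promoter window, so the starts of the others were not checked in this way. Among those without one were Hoxb5 and Hoxc10, each 0.1 kb from a CTCF region, and Hoxc5, 0.2 kb from one. Each is the part of the RefSeq promoter (GRCm38.p6) that lies before the start and inside the region, read 5′ to 3′ on the strand of the gene. Capitals mark the best match to the core of the CTCF motif, CCANNAGNNGGC, searched on both strands.
Hoxa5, minus strand, chr6:52204588-52204837: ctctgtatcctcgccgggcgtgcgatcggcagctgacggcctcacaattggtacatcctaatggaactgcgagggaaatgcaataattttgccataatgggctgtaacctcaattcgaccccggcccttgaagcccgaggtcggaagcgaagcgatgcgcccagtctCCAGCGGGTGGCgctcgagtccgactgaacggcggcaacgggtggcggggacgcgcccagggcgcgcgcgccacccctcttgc
Hoxd10, plus strand, chr2:74691684-74691890: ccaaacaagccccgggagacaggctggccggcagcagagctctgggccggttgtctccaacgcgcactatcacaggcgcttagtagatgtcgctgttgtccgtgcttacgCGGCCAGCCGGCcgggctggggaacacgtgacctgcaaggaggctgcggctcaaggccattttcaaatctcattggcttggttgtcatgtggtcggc
Hoxd3os1, minus strand, chr2:74716131-74716356: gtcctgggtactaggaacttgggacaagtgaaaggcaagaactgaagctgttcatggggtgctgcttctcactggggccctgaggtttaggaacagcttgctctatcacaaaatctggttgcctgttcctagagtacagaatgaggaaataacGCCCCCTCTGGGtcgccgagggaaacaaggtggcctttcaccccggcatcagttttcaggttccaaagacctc

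The match held 7 of the 8 fixed letters at Hoxa5 and at Hoxd3os1, where it lay on the other strand, and 6 of 8 at Hoxd10. Among all 32817 full promoter windows 2.43% held all 8 letters, 30.6% held at least 7 and 92% held at least 6. The full windows of Hoxa5 and Hoxd10 also held 7 and 6, so the match at Hoxd10 is one that nearly every promoter window has. The matches are descriptions of the letters and not evidence of a binding site. The stretch at Hoxa5 held 28 CpG dinucleotides, that at Hoxd10 held 15 and that at Hoxd3os1 held 4. Their full promoter windows, which are longer, held 29, 22 and 5. Of the Hox genes, 22 matched the promoter table with 24 windows, and the median window held 14.5 CpG against 7 over all promoters. A CTCF region lay on 8.33% of the Hox windows and on 6.27% of all.

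The deletion was visible in the RNA. Tdg held 28.1 and 30.4 FPKM (fragments per kilobase of transcript, scaled for library size) in WT replicates 1 and 2 and 5.50 and 4.74 FPKM in TDG KO replicates 1 and 2. Replicate libraries correlated at r = 0.989 in each genotype across genes, which are not independent replicates. Between 20537 and 21776 genes were above 0 in a library, and the FPKM table gives no counts, so depth is unknown. With limma on log2(FPKM + 1), 12035 genes had a mean of 1 FPKM or more, and 2942 of them were called higher in TDG KO and 3554 lower at an adjusted p under 0.05. The split depended on scaling, since upper-quartile scaling over the values above 0 in each library gave 3855 higher and 2214 lower and moved the median log2 change of all genes from -0.04 to 0.07.

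The Hox genes were lowly expressed, and the genes that passed the test were all lower in TDG KO. Summed over the 39 genes, FPKM was 17.6 and 14.5 in the WT libraries and 7.57 and 8.41 in the TDG KO libraries, 2.01-fold lower. Both TDG KO libraries lay below both WT libraries in 28 of the 39 genes, above them in 2 (Hoxb1 and Hoxb13), and overlapped in 9. The TDG KO mean was lower in 33 genes and higher in 6 (Hoxb1, Hoxb5, Hoxb13, Hoxd1, Hoxd9 and Hoxd11). Over all genes above 0 in any library, 29.6% lay below in the same way. Of the 39 genes, 4 reached 1 FPKM in any library, 13 reached 0.5 FPKM and 6 stayed under 0.1 FPKM everywhere.

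**Figure D1:**
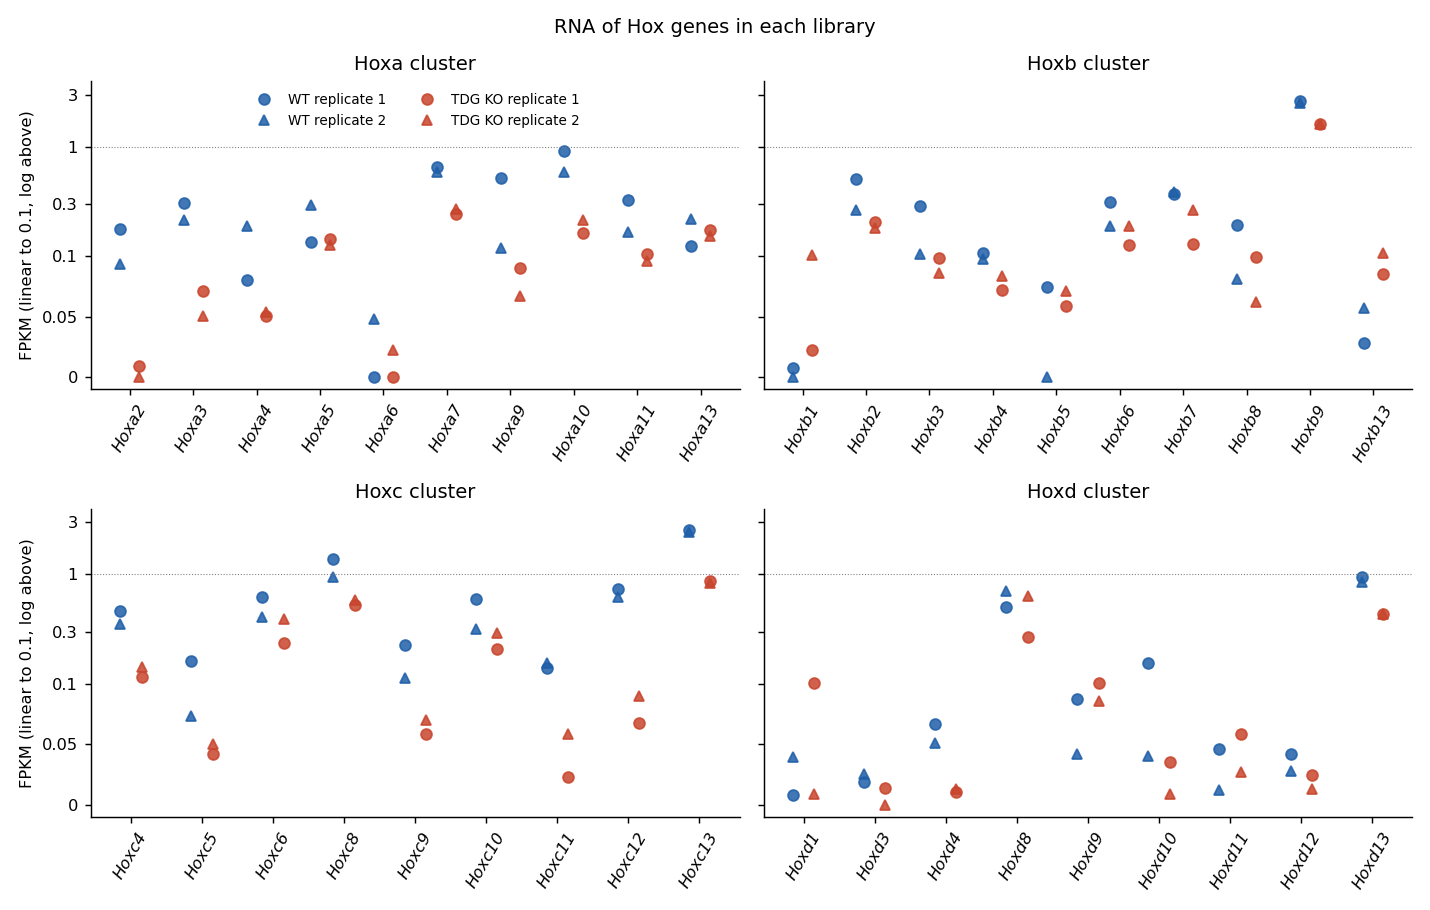
FPKM of the Hox genes reported here in each library (y axis, linear up to 0.1 FPKM and logarithmic above), 1 panel per cluster, with genes on the x axis, blue for WT, red for TDG KO, circles for replicate 1 and triangles for replicate 2. Hoxb9 and Hoxc13 are the only genes with a mean above 1 FPKM (dotted line), and every gene of the Hoxc cluster has both TDG KO points below both WT points.

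Only Hoxb9 and Hoxc13 passed the filter on a mean FPKM of at least 1, and both were lower, against a background of 29.5% of tested genes called lower. Hoxc13 passed through its WT values alone, since both its TDG KO values were under 1 FPKM, so these calls only describe the genes that passed. Hoxc13, a posterior gene of the Hoxc cluster known for its role in hair and nail, held 2.58 and 2.45 FPKM in WT and 0.866 and 0.838 FPKM in TDG KO. Its log2 change on the log2(FPKM + 1) scale was -0.93 (SE 0.0984, limma, adjusted p = 0.000469). Hoxb9, a posterior gene active in the thorax and limb field, was the most abundant Hox gene. It held 2.62 and 2.54 FPKM in WT and 1.60 and 1.62 FPKM in TDG KO, a log2 change of -0.46 (SE 0.0926, adjusted p = 0.00623). In both genes the 2 genotypes were separated by more than their replicates.

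Since most Hox genes lie under that filter, the fit was repeated at a mean of at least 0.1 FPKM with a pseudocount of 0.1, a setting chosen after seeing the data. It tested 23 of the 39 genes and called 9 lower and 0 higher, against 22.5% of all 16643 genes called lower. A gene high in WT alone passes such a filter through WT, and the 6 genes with a higher TDG KO mean all lay under it, so this count only describes the genes that passed. The authors' deposited table, with its own test, tested 22 Hox genes and marked 9 as significant, all lower in TDG KO, with 12.1% of its tested genes lower. These were the same 9 genes as in the fit at 0.1 FPKM, from the same libraries, and they were called under upper-quartile scaling too. Leaving out WT replicate 1 left 4 of the calls (Hoxa10, Hoxb9, Hoxc12 and Hoxc13). Without TDG KO replicate 1 they were 3 (Hoxb9, Hoxc12 and Hoxc13), and without TDG KO replicate 2 also 3 (Hoxa10, Hoxc12 and Hoxc13). Without WT replicate 2 there were 10, with Hoxa9 added. Hoxc12 and Hoxc13 were called in each of these fits.

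**Figure D2:**
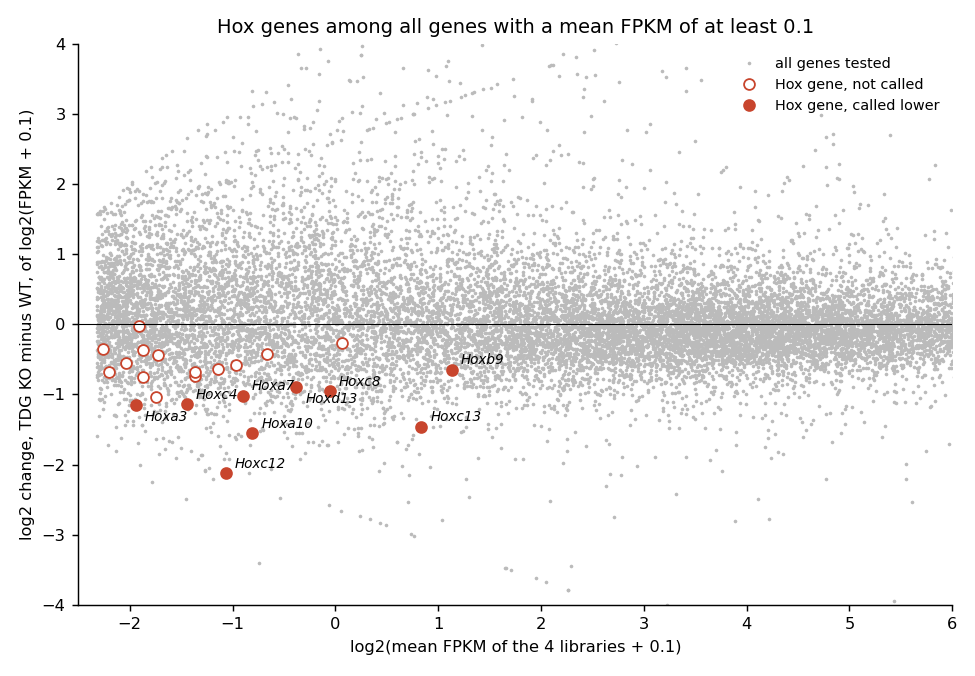
Log2 change between TDG KO and WT (y axis) against mean level (x axis, log2 FPKM + 0.1) for the 16643 genes with a mean of at least 0.1 FPKM (grey), with Hox genes in red, filled where called lower by limma. All 23 tested Hox genes lie below 0 and 9 of them are called, while the 6 Hox genes with a higher TDG KO mean lie under the filter and are not drawn; a few other genes lie beyond the axes.

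The posterior Hox genes, numbered 9 to 13, which pattern the trunk end and limb tips, summed to 10.1 and 8.32 FPKM in WT and 4.09 and 4.17 FPKM in TDG KO. Hoxc12, the neighbour of Hoxc13, had the largest log2 change among the tested Hox genes. It held 0.734 and 0.622 FPKM in WT and 0.0674 and 0.0899 FPKM in TDG KO, 8.62-fold lower in mean (log2 change on the log2(FPKM + 0.1) scale -2.12, SE 0.254, limma, adjusted p = 0.00147). Hoxa10, a regulator of the uterus and lumbar spine, held 0.921 and 0.587 FPKM in WT and 0.162 and 0.212 FPKM in TDG KO (log2 change -1.55, adjusted p = 0.00633). Hoxd13, the digit gene at the end of the Hoxd cluster, held 0.943 and 0.855 FPKM in WT and 0.435 and 0.438 FPKM in TDG KO (log2 change -0.90, adjusted p = 0.0111). In these 3 genes the WT and TDG KO libraries did not overlap.

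Other posterior genes near these levels were not called. Hoxa9 held 0.513 and 0.119 FPKM in WT and 0.0904 and 0.0668 FPKM in TDG KO, so that 1 WT library was far above the other 3 (adjusted p = 0.144). Hoxc10 held 0.599 and 0.316 FPKM in WT and 0.207 and 0.292 FPKM in TDG KO (adjusted p = 0.162). The groups of Hoxa13, Hoxd9 and Hoxd11 overlapped. Hoxb13, a gene of the tail end that lies apart from the rest of its cluster, held 0.0280 and 0.0572 FPKM in WT and 0.0848 and 0.106 FPKM in TDG KO.

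Among the central genes, numbered 4 to 8, Hoxc8, a gene of the thoracic skeleton, held 1.40 and 0.954 FPKM in WT and 0.524 and 0.580 FPKM in TDG KO (log2 change -0.95, adjusted p = 0.0171). Hoxa7 held 0.648 and 0.588 FPKM in WT and 0.243 and 0.267 FPKM in TDG KO (log2 change -1.02, adjusted p = 0.0119). Hoxc4 held 0.463 and 0.349 FPKM in WT and 0.115 and 0.142 FPKM in TDG KO (log2 change -1.14, adjusted p = 0.0169). All 3 were separated between the genotypes. Hoxd8 held 0.505 and 0.711 FPKM in WT and 0.269 and 0.641 FPKM in TDG KO, and its groups overlapped (adjusted p = 0.388). Hoxc6 held 0.627 and 0.404 FPKM in WT and 0.234 and 0.389 FPKM in TDG KO (adjusted p = 0.169).

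Of the anterior genes, numbered 1 to 3, which pattern the hindbrain, Hoxb2 held 0.507 and 0.263 FPKM in WT and 0.205 and 0.180 FPKM in TDG KO (adjusted p = 0.133). Hoxa3 held 0.308 and 0.213 FPKM in WT and 0.0712 and 0.0507 FPKM in TDG KO (log2 change -1.15, adjusted p = 0.0261) and was called. Hoxb1 held 0.00745 and 0 FPKM in WT and 0.0228 and 0.101 FPKM in TDG KO, all under the filters of both fits.

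By cluster, the TDG KO libraries lay below the WT libraries in 9 of 9 Hoxc genes, 8 of 11 Hoxa genes, 6 of 10 Hoxb genes and 5 of 9 Hoxd genes. Over all genes above 0 in any library the share was 29.6%. Summed FPKM over Hoxc was 6.93 and 5.43 in the WT libraries, against 2.14 and 2.51 in the TDG KO libraries. Over Hoxb it was 4.50 and 3.72 in the WT libraries, against 2.50 and 2.76 in the TDG KO libraries. The Hoxb cluster lies on chromosome 11, where 674 of 1028 tested genes were called higher in TDG KO and 54 lower. The median log2 change there was 0.37, against 0.04 on chromosome 6 (Hoxa), -0.06 on chromosome 15 (Hoxc) and -0.09 on chromosome 2 (Hoxd). The part of that shift in the Hoxb values was not tested.

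Markers of embryonic fibroblasts, the feeder cells, moved with the Hox genes. Summed over 30 markers, FPKM was 596 and 404 in the WT libraries, against 346 and 392 in the TDG KO libraries. None of the 30 was at 0, and of 25 tested markers 15 were called lower and 1 higher, against 29.5% of all tested genes lower and 24.4% higher. Col3a1, a fibrillar collagen, held 57.1 and 29.8 FPKM in WT and 15.3 and 19.0 FPKM in TDG KO, so that the first WT library was highest. Tagln, a smooth muscle gene, was the marker called higher. WT replicate 1 was above WT replicate 2 in 29 of the 30 markers and in 29 of the 39 Hox genes. Over all genes it was above in 10996 of the 24145 that were above 0 in any library. The fibroblast sum of WT replicate 2 (404) was close to that of TDG KO replicate 2 (392), while the Hox sums of those libraries were 14.5 and 8.41 FPKM. The part of the fibroblast markers in the Hox difference was not tested. In bulk RNA, fewer cells expressing a gene and less RNA per cell cannot be told apart.

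**Figure D3:**
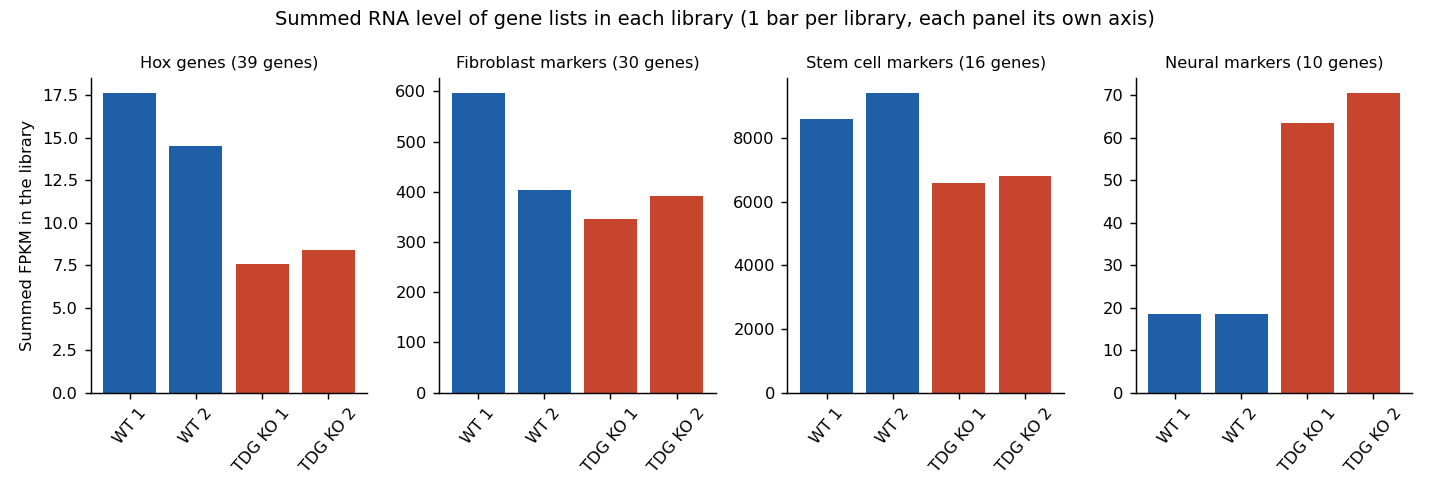
Summed FPKM of 4 gene lists in each library (y axis, each panel on its own scale, 1 bar per library, blue WT and red TDG KO). The sums of the Hox genes and of the fibroblast markers are lower in both TDG KO libraries than in both WT libraries. The neural sum is higher, at 63.4 and 70.4 FPKM against 18.4 and 18.6 FPKM. Tubb3 alone holds 48.5 and 55.9 FPKM of it against 13.1 and 13.3 FPKM. Of the 10 neural markers, 5 have both TDG KO libraries above both WT libraries, 1 has them below and 4 overlap.

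The genes around the clusters gave a mixed picture. Of 32 Polycomb genes, the family that keeps Hox genes silent, 30 were tested, 9 were higher and 14 lower. Rbbp7, a histone-binding subunit of the complex, held 643 and 686 FPKM in WT and 233 and 237 FPKM in TDG KO (log2 change -1.49, adjusted p = 1.82e-05), while Ezh1, a methyltransferase, held 6.22 and 6.24 FPKM in WT and 12.5 and 11.5 FPKM in TDG KO (log2 change 0.85, adjusted p = 0.000246). Of 16 Trithorax and MLL genes, whose products keep Hox genes active, 12 were lower and 2 higher. Wdr5, a core subunit, held 183 and 196 FPKM in WT and 107 and 106 FPKM in TDG KO (log2 change -0.82, adjusted p = 0.000140). The background here was 29.5% called lower and 24.4% higher. Ezh1 lies on chromosome 11, where 674 of 1028 tested genes were called higher. So do Suz12, E130012A19Rik and Cbx2, which were also among the Polycomb genes called higher. The part of the chromosome in these values was not tested.

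Of 18 genes of retinoic acid handling, a signal that switches on Hox genes, 10 were tested, 7 were higher and 0 lower, where 24.4% of all tested genes were called higher. Crabp2, a retinoic acid binding protein, held 7.17 and 6.17 FPKM in WT and 12.7 and 14.0 FPKM in TDG KO (log2 change 0.91, adjusted p = 0.000382). Of 14 upstream activators 4 were tested, and T and Fgf8 were called higher and Cdx1 lower. In the fit at 0.1 FPKM all 14 were tested, and 6 were higher and 2 lower. That fit called 3704 of all 16643 genes higher and 3742 lower. Among the higher activators was the ligand Wnt3, at 0.147 and 0.166 FPKM in WT and 1.70 and 1.61 FPKM in TDG KO. Wnt3 lies on chromosome 11, where that fit called 775 of 1406 genes higher. Of 11 TALE partners of Hox proteins 2 were higher and 3 lower out of 9 tested at 1 FPKM. The background at 1 FPKM, for this list and those that follow, was 29.5% of all tested genes lower and 24.4% higher. T, the mesoderm factor brachyury, held 1.13 and 1.09 FPKM in WT and 5.82 and 6.97 FPKM in TDG KO (log2 change 1.80, adjusted p = 4.73e-05). Of 16 stem cell markers 10 were lower and 3 higher, with Klf4, a pluripotency factor, at 178 and 185 FPKM in WT and 110.5 and 105 FPKM in TDG KO. Of 10 neural markers 3 were tested and all 3 higher, among them Nes, the filament protein nestin, at 2.90 and 2.70 FPKM in WT and 11.7 and 10.8 FPKM in TDG KO. Sox1, an early neural factor of the same list, went the other way, at 0.561 and 0.576 FPKM in WT and 0.169 and 0.174 FPKM in TDG KO, and was called lower in the fit at 0.1 FPKM (log2 change -1.30, limma, adjusted p = 0.00583). Of 10 mesoderm and endoderm markers only Eomes was tested at 1 FPKM, and it was lower. In the fit at 0.1 FPKM 9 of them were tested, with 1 higher and 2 lower. The higher one was Hand1, at 0.105 and 0.0102 FPKM in WT and 0.939 and 0.683 FPKM in TDG KO (log2 change 2.59, limma, adjusted p = 0.00274). Hand1 also lies on chromosome 11.

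Of the 64 other genes in the windows only 4 were tested, and Halr1, a long noncoding RNA in the Hoxa window, was the one called. Of all tested genes 29.5% were called lower. It held 31.4 and 28.2 FPKM in WT and 15.9 and 16.5 FPKM in TDG KO (log2 change -0.84, limma, adjusted p = 0.000235). Gm53, in the gap between Hoxb13 and Hoxb9, held 6.10 and 5.80 FPKM in WT and 4.99 and 5.06 FPKM in TDG KO (adjusted p = 0.0606). Hotairm1, a noncoding RNA of the Hoxa cluster, held 0.562 and 1.51 FPKM in WT and 1.00 and 1.46 FPKM in TDG KO (adjusted p = 0.566). Gm27477 was read at 6.24 FPKM in WT replicate 1 and listed at 0 in the other libraries (adjusted p = 0.165). No source used here says whether the counting used strand, so reads of overlapping and antisense genes are uncertain. Of 14 listed genes of the clusters, mostly antisense or noncoding but with the homeobox genes Evx1 and Evx2 among them, 2 reached a mean of 1 FPKM and Halr1 was the one called.

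CTCF binding at the Hox clusters was largely present in all 4 peak lists. Of the 41 regions 34 (82.9%, exact 95% interval 67.9 to 92.8, counting error only) had peaks in every list, against 59.8% of all regions. A single region (2.44%, 0.0617 to 12.9) was found in each TDG KO list but no WT list, where 10.8% of all regions did, and 0 had the reverse. Among the better-ranked peaks of each list, those above its median score, 4 regions (12.9%) in the windows and 9.93% of all were in the TDG KO lists alone. These 4, of which 3 lay in Hoxb, had peaks in every list before the cut, with WT peaks ranked under the median. One was chr11:96156946-96157775, at percentiles of 25.7 and 22.8 in the WT lists and 75.7 and 55.4 in the TDG KO lists. Without TDG KO replicate 1, 4 regions (9.76%, against 18.6% of all) were in TDG KO replicate 2 and no WT list. They included the regions found in that list alone. With all lists and all peaks, the remaining 6 of the 41 were in other combinations of lists. The windows held 37 and 35 peaks in the WT lists and 37 and 40 in the TDG KO lists, a ratio of 1.07, against 1.29 for whole lists. With 2 lists on each side an exact permutation test has a smallest p of 0.33, so no p is given. The lists differ in length and depth is unknown, so more peaks in TDG KO as a whole cannot be told apart from a difference in depth or enrichment.

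Hoxa held 9 regions, Hoxb 17, Hoxc 4 and Hoxd 11, and 11 of the 41 overlapped a Hox gene, 16 lay between Hox genes and 14 in the flanks. Scores were compared as percentiles, the rank of the authors' score inside its own list. Ranks from lists of different lengths cannot show whether binding changed. In Hoxa the region in all lists with the highest mean percentile, chr6:52221511-52222030, lay between Hoxa7 and Hoxa9, at 98.5 and 96.8 in the WT lists and 96.1 and 98.8 in the TDG KO lists. In Hoxb it was chr11:96303034-96303425, 0.1 kb from Hoxb5, at 75.9 and 79.2 in the WT lists and 93.3 and 96.6 in the TDG KO lists. In Hoxc it was chr15:102966429-102966728, 0.1 kb from Hoxc10, at 99.1 and 82.0 in the WT lists and 98.1 and 90.7 in the TDG KO lists. In Hoxd it was chr2:74715744-74716356, the region over the start of Hoxd3os1 whose sequence is given above, at 86.4 and 76.8 in the WT lists and 83.7 and 78.9 in the TDG KO lists. The region over the start of Hoxa5, chr6:52204437-52204845, was at 95.4 and 83.3 in the WT lists and 86.6 and 93.9 in the TDG KO lists. Outside Hoxb these regions ranked high in every list, with no split between the genotypes.

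**Figure D4:**
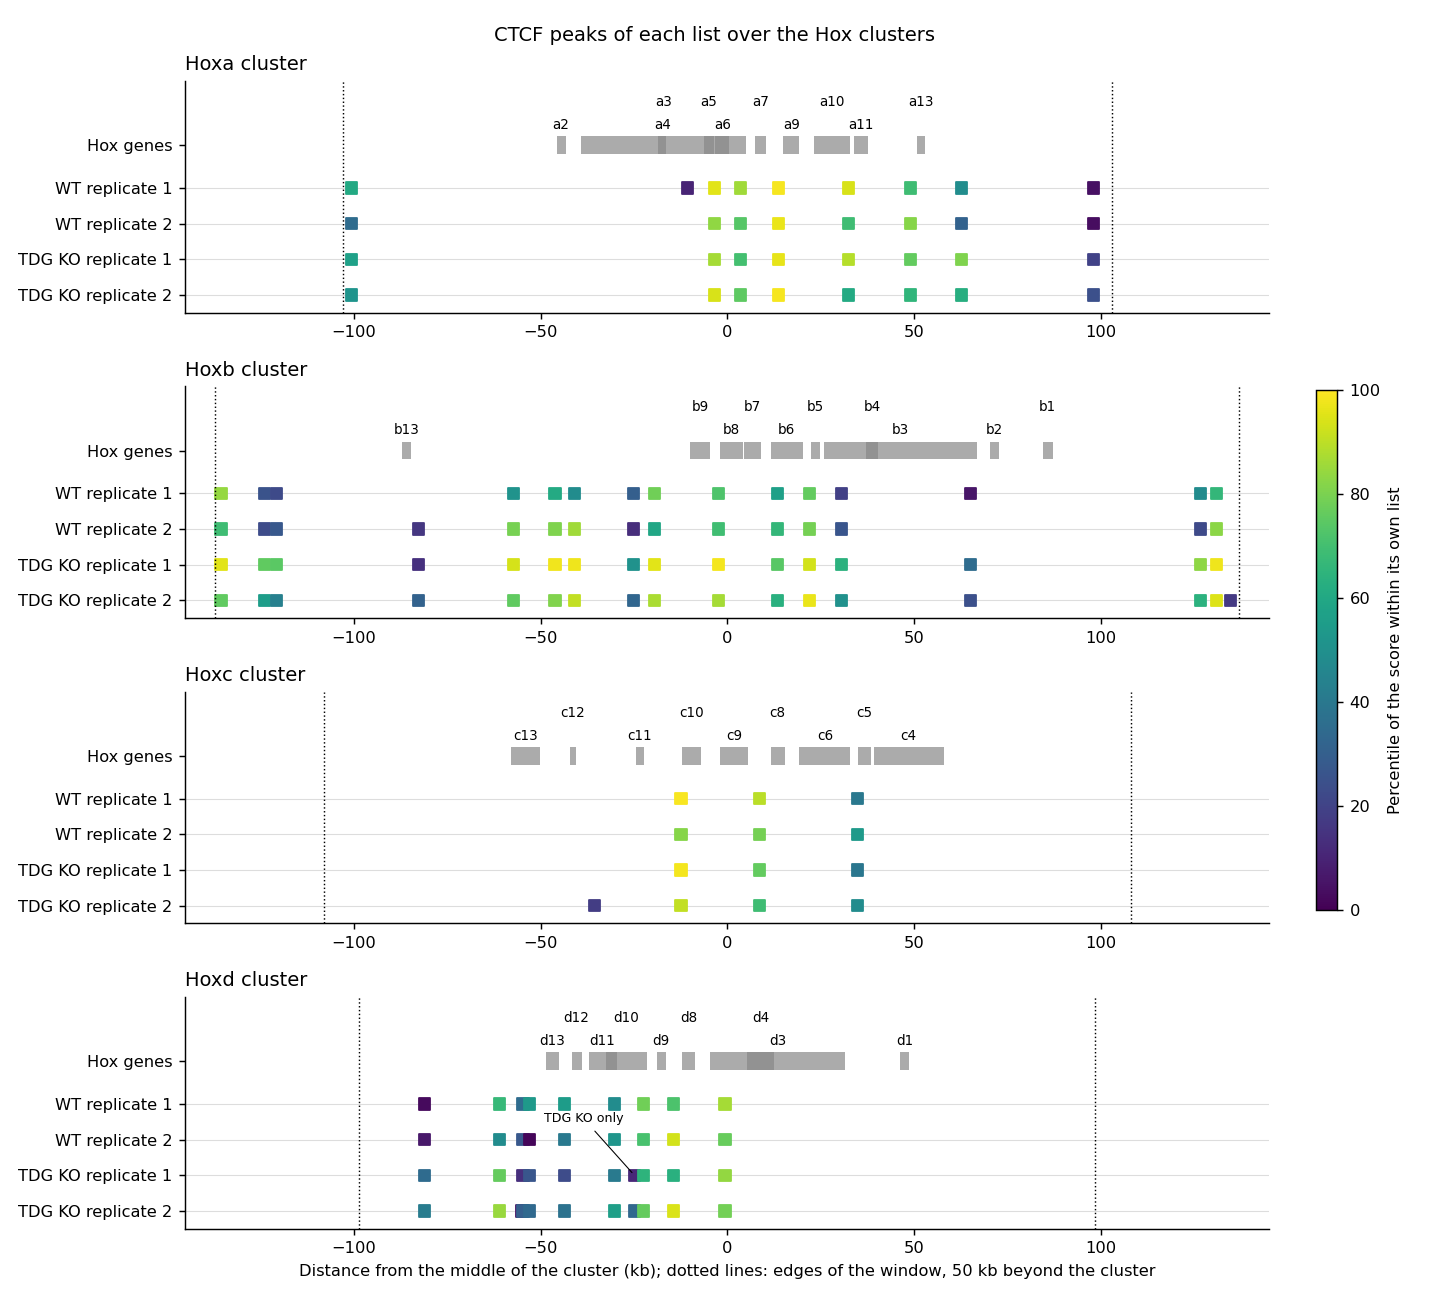
CTCF peaks of each list (squares, coloured by the percentile of the score in its own list) along the 4 clusters, with the x axis in kb from the middle of the cluster and Hox genes as grey boxes. Of 41 regions 34 line up in all 4 lists, and the arrow marks the region at Hoxd10 that is in both TDG KO lists only.

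The region in both TDG KO lists only, chr2:74691684-74691927, lay over the Hoxd10 promoter with low ranks, at percentiles of 11.2 and 33.5. Hoxd10 RNA was 0.156 and 0.0405 FPKM in WT and 0.0350 and 0.00934 FPKM in TDG KO, too low for the filter of either fit. Of the regions in other combinations, 3 were in TDG KO replicate 2 alone (chr11:96415831-96416041, chr15:102943382-102943550 and chr2:74661643-74661802), at percentiles of 16.8, 17.7 and 4.28. The region chr6:52197408-52197578, inside the span of Hoxa3, was in WT replicate 1 alone at 10.1. The region chr11:96198405-96198822, between Hoxb13 and Hoxb9, was missing from WT replicate 1, and chr11:96346068-96346350, in Hoxb3, from WT replicate 2. None of the 6 ranked above a percentile of 34.8 in any list.

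The 74.7 kb between Hoxb13 and Hoxb9 held 6 regions, 5 of them in all lists. Among Hoxb regions in all lists, both TDG KO percentiles were above both WT percentiles in 11 of 14 (78.6%). The same was true of 81.3% of such regions on chromosome 11 and of 41.6% of all such regions, so the Hoxb order is that of its chromosome. Chromosome 11 held 6.32 and 7.21% of the peaks of the WT lists and 9.36 and 7.74% of those of the TDG KO lists. In the other clusters the count was 2 of 8 for Hoxa, 0 of 3 for Hoxc and 2 of 9 for Hoxd.

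**Figure D5:**
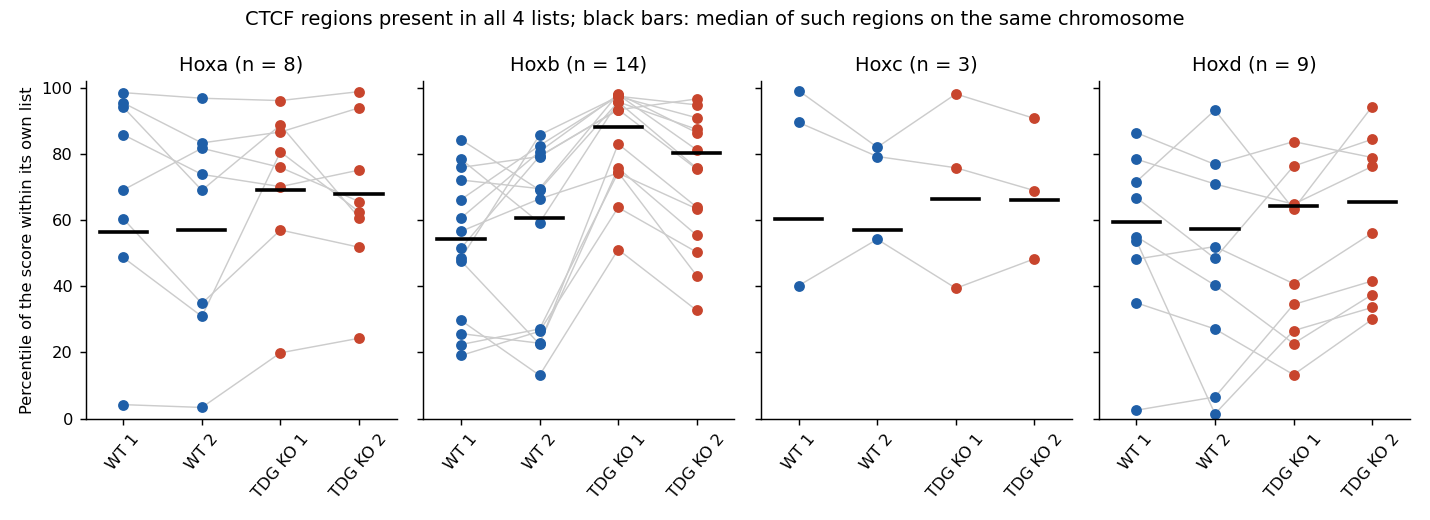
Percentile of the score in its own list (y axis) for the CTCF regions present in all lists, 1 panel per cluster and 1 column per list, with lines joining a region and black bars at the median of such regions on the same chromosome. In Hoxb 11 of 14 regions have both TDG KO points above both WT points, as do 81.3% of such regions on chromosome 11.

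The distance from each Hox gene to its nearest CTCF region was set beside the RNA calls as a description. For the 9 genes called lower in the fit at 0.1 FPKM, the nearest region was in all lists for 7, and the median distance was 2.70 kb. For the 14 genes tested and not called it was in all lists for 12, at a median of 1.40 kb. For the 16 genes not tested it was also in all lists for 12, at a median of 1.85 kb. The called genes whose nearest region was not in all lists were Hoxc12 and Hoxc13, and that region was in TDG KO replicate 2 alone.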

How the data were processed

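RNA and CTCF binding were each measured in 2 WT and 2 TDG KO libraries. The authors deposited FPKM values per gene, per the file headers, and a comparison table with log2 fold changes, p-values, q-values and a test score; in 21032 of 21033 genes that fold was WT relative to TDG KO, and its sign was turned. Tools named in the submitters' processing notes are Bowtie2 2.2.9, TopHat2 2.1.1, Cuffdiff, Cufflinks 2.2.1, deepTools and MACS2 2.2.1, with build mm10 and no roles. The deposited CTCF lists give peaks with a score of unstated meaning, used only to rank peaks within a list. RNA polymerase II, IgG and input libraries were not analysed here.

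RNA was tested on log2(FPKM + 1), over genes with a mean of 1 FPKM or more, using limma (version 3.58.1, R 4.3.3, trend) with Benjamini-Hochberg adjustment (threshold 0.05, two-sided). Such folds understate low genes. The fit at a mean of 0.1 FPKM and pseudocount 0.1 was added after seeing the data. Peaks of the lists sharing 1 bp or more were merged into regions. The procedures were tested on simulated data. Gene positions and promoters are from RefSeq (GRCm38.p6, the build of mm10), 1-based; exons and introns were not told apart. Intervals are exact (Clopper-Pearson). The members and gene lists were chosen with earlier results of these data known. Named by rule were the Hox genes reaching 0.5 FPKM, except 1 that is not reported here, up to 4 called members of a list, other window genes with a mean of at least 1 FPKM, and CTCF regions not in all lists, of highest rank, or over a Hox start. Lower Hox genes (such as Hoxa3, Hoxc4, Hoxb1, Hoxb13 and Hoxd10), Wnt3, Sox1 and Hand1 were named after their values were seen. Alternatives were scaling, pseudocount, filter, a replicate block, leaving out each library, stricter peaks and other flanks.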

Additional observations from a re-analysis of the deposited data

How the results depend on the processing

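Hoxb9 and Hoxc13 stayed lower and called under every setting that tested them at a mean of 1 FPKM or another filter with a pseudocount of 1, and with a pseudocount of 0.1 at 1 FPKM. In the added fit at 0.1 FPKM Hoxb9 lost its call without TDG KO replicate 2 (limma, adjusted p = 0.0530, and 0.0112 to 0.0486 in that fit's other versions). The count of Hox genes called lower was 2 at a mean of at least 1 FPKM, 9 at 0.1 FPKM, 10 with no filter and 0 at 5 FPKM, where none was tested. In the fit added after seeing the data it was between 3 and 10 when 1 library was left out, and 9 with either scaling. The whole table depended on how upper-quartile scaling was defined, which the plan did not say. Over the values above 0 in each library, the version run first, calls were 3855 higher and 2214 lower (63.5% higher, against 45.3% as deposited) and the median log2 change of all genes moved from -0.04 to 0.07. A version over genes with a mean of at least 1 FPKM, added after that result was seen, gave 3236 higher and 3167 lower (50.5% higher). In the fit at 0.1 FPKM the first version gave 4714 higher and 2313 lower, against 3704 and 3742 as deposited. The cause was not tested.

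Non-Hox window genes called lower numbered 1, but 3 at 0.1 FPKM and with no filter and 2 with the replicate block; leaving out a library gave 1 to 2 lower and 0 to 1 higher. Same-numbered libraries share only a number (correlation of their deviations -0.02). With the replicate block 2 Hox genes were lower at 1 FPKM and 9 in the added fit, and 3030 genes were higher and 3666 lower. For CTCF, keeping as many of the strongest peaks as the shortest list holds gave 0 KO-only regions in the windows (0%, genome 2.81%). The stronger part of each list gave 18 regions in all lists, 4 KO-only (12.9%, genome 9.93%) and 21.5 peaks per WT list. Those 4 had lower-ranked WT peaks that the cut removed. With no flank there were 22 regions in all lists, 23.5 peaks per WT list and 25.5 per TDG KO list. Leaving out a list gave 1 to 4 KO-only, 0 to 1 WT-only and 3 other regions, with 15.4 to 18.6% of the genome KO-only. Depth is unknown for all libraries.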
